A study of Mus musculus with 2 samples.

Results

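Short CDR3s of the TCR β-chain, those of 12 amino acids (aa) or fewer, were taken from the receptor lists of hepatic CD8αα and CD8αβ T cells. A clonotype counted when its best V hit was a TRBV gene, its best J hit was a TRBJ gene and its CDR3 had at most 12 aa. This gave 42 of the 337 CD8αα and 177 of the 915 CD8αβ clonotypes of this chain, 219 of 1252 in all. Both cell types were sorted from the liver of TG mice, a model of primary biliary cholangitis on the C57BL/6 strain whose genotype is dnTGFβRII, a dominant-negative TGF-β receptor II driven by the Cd4 promoter. By the labels both were from mice of 10 weeks, with no treatment named, whereas the methods for liver mononuclear cells name mice of 8 to 9 weeks, and no mice without the transgene entered the comparison. There was 1 bulk RNA-seq library for each cell type, the number of mice in each is not given in the sources used here, and no difference between cell types has a replicate check. Every p below therefore compares these 2 libraries or classes of clonotypes within 1 of them. The lists hold receptor chains only, so the sorted phenotype could not be checked against Cd8a and Cd8b1.

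The TCR β-chain is assembled in the thymus by joining a D segment to a J segment and then a V segment to that product. Enzymes trim the segment ends, and terminal transferase adds bases that no segment encodes. The CDR3 spans these joints, from a conserved cysteine of the V segment to a conserved phenylalanine of the J segment, and its middle part often contacts the peptide held by an MHC molecule. CD8αα homodimers and CD8αβ heterodimers are both coreceptor forms of T cells, and CD8αβ is the usual form on conventional cytotoxic T cells.

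Every short CDR3 in both libraries began with the conserved cysteine and ended with phenylalanine, and a stop codon or frameshift was found in 0 of them. Longer CDR3s were alike, with each end conserved in 295 of 295 in CD8αα and 737 of 738 in CD8αβ T cells. A stop codon or frameshift was found in 0 of those as well. The 5 short clonotypes with the most reads in each library show how such a CDR3 is built. They are printed 5′ to 3′ as deposited, with capitals for the bases between the end of the V segment and the start of the J segment. Palindromic bases, which extend a V or J end as its mirror copy, count with that segment and are in lower case. The V part holds 1 such base in the TRBV13-3-TRBJ1-1 clonotype and 2 in the TRBV20-TRBJ2-7 clonotype of CD8αα T cells.
CD8αα TRBV29-TRBJ1-5: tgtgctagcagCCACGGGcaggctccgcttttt
CD8αα TRBV13-3-TRBJ1-1: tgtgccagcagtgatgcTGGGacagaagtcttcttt
CD8αα TRBV17-TRBJ2-4: tgtgctagcagtacagacaccttgtacttt
CD8αα TRBV1-TRBJ2-1: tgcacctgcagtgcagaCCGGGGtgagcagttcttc
CD8αα TRBV20-TRBJ2-7: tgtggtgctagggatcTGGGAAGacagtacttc
CD8αβ TRBV4-TRBJ2-7: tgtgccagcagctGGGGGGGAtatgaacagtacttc
CD8αβ TRBV3-TRBJ2-5: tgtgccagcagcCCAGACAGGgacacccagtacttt
CD8αβ TRBV13-1-TRBJ2-7: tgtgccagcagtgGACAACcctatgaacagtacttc
CD8αβ TRBV14-TRBJ2-7: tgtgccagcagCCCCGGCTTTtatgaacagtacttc
CD8αβ TRBV29-TRBJ1-1: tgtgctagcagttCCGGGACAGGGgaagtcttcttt

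In the TRBV17-TRBJ2-4 clonotype the V and J matches overlapped by 1 base, so nothing in capitals is left. The CD8αα list held 2 such overlaps and the CD8αβ list 6, of which 2 and 2 were in short CDR3s. Of the 5 largest short clonotypes, 1 in CD8αα and 3 in CD8αβ T cells used TRBJ2-7.

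The shortest CDR3s are shown because they mark how little sequence can lie between V and J. In CD8αα T cells the shortest had 9 aa and 5 reads, and in CD8αβ T cells 4 clonotypes had 8 aa, with 3, 1, 1 and 1 reads in the order printed.
CD8αα TRBV16-TRBJ2-5: tgtgcaagcagctCGGGAcagtacttt
CD8αβ TRBV12-2-TRBJ2-7, first: tgtgccagctctctacagtacttc
CD8αβ TRBV12-2-TRBJ2-4: tgtgtcagcGGcaccttgtacttt
CD8αβ TRBV12-2-TRBJ2-7, second: tgtgccagctcAgaacagtacttc
CD8αβ TRBV19-TRBJ1-1: tgtgccagcGGagaagtcttcttt

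The 9-aa CDR3 had lost 4 germline bases of V and 12 of J, and its 5 middle bases were matched equally well to TRBD1 and TRBD2. The 4 CDR3s of 8 aa had no D match and 0, 2, 1 and 2 bases between V and J, and they had lost 7 to 9 germline bases of J. Removing the first 4 and the last 4 residues leaves nothing of an 8-aa CDR3, so these 4 clonotypes add no central residue below.

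Short CDR3s made up less of the CD8αα repertoire than of the CD8αβ repertoire, both by clonotypes and by reads. By clonotypes the share was 12.5% of CD8αα (95% Wilson confidence interval 9.35 to 16.4) and 19.3% of CD8αβ clonotypes (16.9 to 22.03), and CD8αα minus CD8αβ was -6.88 percentage points (two-sided Fisher's exact test, p = 0.00429). By reads of this chain it was 172 of 2995 in the CD8αα library, or 5.74% (4.96 to 6.63), and 385 of 1850 in the CD8αβ library, or 20.8% (19.02 to 22.7; Fisher's exact test, p = 1.05e-55). The sources name no molecular identifiers, so several reads may stem from 1 molecule, and intervals and read tests cover counting error only. A single short clonotype held 61 reads in CD8αα and 91 in CD8αβ T cells, and without it the short clonotypes held 3.71% and 15.9% of all reads of the chain. With the top clonotype removed from each library, whatever its length, CD8αα minus CD8αβ was -9.34 percentage points of reads (Fisher's exact test, p = 2.17e-20).

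The 12-aa class held most of the difference in clonotypes and in reads. CDR3s of 12 aa, just inside the limit, were 6.23% of CD8αα clonotypes (4.11 to 9.34) and 12.6% of CD8αβ clonotypes (10.6 to 14.9). CDR3s of 11 aa were 5.34% and 5.14%, and with the limit at 11 aa the same difference was -0.545 percentage points (Fisher's exact test, p = 0.799). Of the reads, the 12-aa class held 1.97% in CD8αα and 15.7% in CD8αβ T cells, where 91 of its 291 reads were in 1 clonotype. The 11-aa class held 3.17% and 4.05% of reads. With the limit at 11 aa the share of reads differed by -1.31 percentage points (Fisher's exact test, p = 0.0337). CDR3s of 13 aa, just outside the limit, were 18.7% and 19.1% of clonotypes, but they held 42.1% of CD8αα reads against 17.5% of CD8αβ reads. Of the 1262 CD8αα reads at 13 aa, 894 were in 2 of the 63 clonotypes, with 663 and 231 reads, and without these 2 the class held 17.5% of the remaining reads. With the limit at 13 aa the clonotype share stayed lower in CD8αα T cells, at -7.31 percentage points (exact p = 0.0173 by Fisher's test). For reads it was then higher, by 9.56 percentage points (Fisher's exact test, p = 8.26e-11), but without the top clonotype of each library it was 33.1% against 35.1%, or -2.07 percentage points (exact test, p = 0.172).

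**Figure D1:**
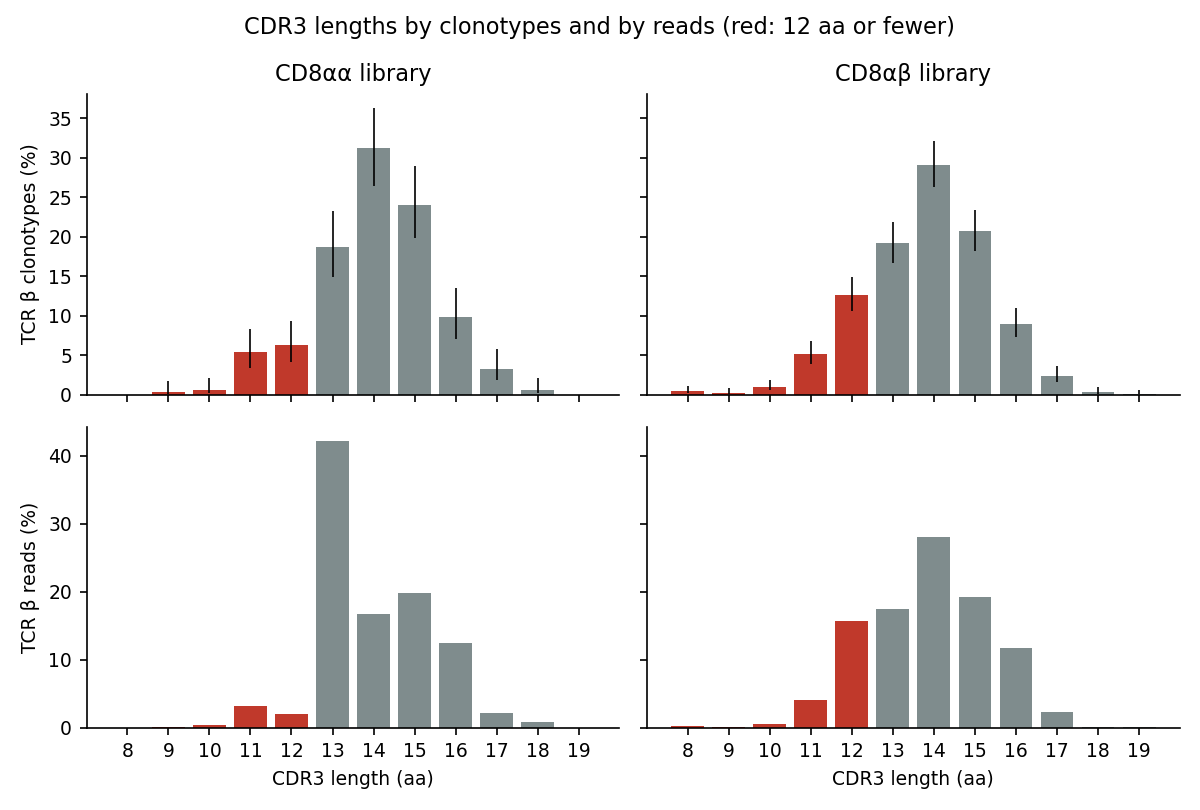
TCR β-chain CDR3 lengths (x axis, aa) by the share of clonotypes (upper row, %, with 95% Wilson intervals) and of reads (lower row, %) in each library, with CDR3s of 12 aa or fewer in red. The 12-aa bar is 6.23% of CD8αα clonotypes and 12.6% of CD8αβ clonotypes, and the 13-aa bar holds 42.1% of CD8αα reads, 894 of 1262 of them in 2 clonotypes.

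TRBJ2-7, the last J segment of the second D-J cluster, was the leading J segment of short CDR3s in both libraries, and its share was raised among short CDR3s of CD8αβ T cells. It was used by 86 of 177 short clonotypes there, or 48.6% (41.3 to 55.9), against 129 of 738 longer ones, or 17.5% (14.9 to 20.4), 31.1 percentage points apart (Fisher's exact test, Benjamini-Hochberg adjusted p = 2.56e-15). CD8αα T cells used it in 12 of 42 short clonotypes, or 28.6% (17.2 to 43.6), and 66 of 295 longer ones, or 22.4% (17.99 to 27.5; difference 6.20 percentage points, exact test, adjusted p = 1). Read the other way, 40.0% of the 215 TRBJ2-7 clonotypes of CD8αβ T cells were short, and 15.4% of the 78 of CD8αα T cells. By reads, TRBJ2-7 held 235 of the 385 short reads in CD8αβ T cells, 91 of them in 1 clonotype, and 25 of the 172 in CD8αα T cells.

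J segments bring different numbers of germline bases into the CDR3, so J use is tied in part to the length rule. The segments are shown because their lengths order the plot of J gene use. The sequences are from the GENCODE annotation of GRCm38, on the plus strand, with capitals for the bases that lie in the CDR3 and lower case for the bases after it.
TRBJ2-7: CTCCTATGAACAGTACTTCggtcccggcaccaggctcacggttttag
TRBJ1-1: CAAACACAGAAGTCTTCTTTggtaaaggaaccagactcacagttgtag
TRBJ2-3: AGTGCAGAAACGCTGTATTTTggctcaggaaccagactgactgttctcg
TRBJ2-4: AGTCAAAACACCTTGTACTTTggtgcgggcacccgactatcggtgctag
TRBJ2-1: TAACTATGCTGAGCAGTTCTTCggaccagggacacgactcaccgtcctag
TRBJ2-2: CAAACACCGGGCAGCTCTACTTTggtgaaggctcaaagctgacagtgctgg

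TRBJ2-7 lies at chr6:41543810-41543856 and is a single exon of 47 bases, of which 19 fall in the CDR3, the fewest of the 12 J segments found. TRBJ1-1 (chr6:41533864-41533911) and TRBJ1-2 contribute 20 bases, TRBJ2-3 (chr6:41543223-41543271), TRBJ2-4 (chr6:41543362-41543410) and TRBJ2-5 21, TRBJ2-1 (chr6:41542754-41542803) 22, TRBJ2-2 (chr6:41542957-41543007) 23 and TRBJ1-6 25. The 3 segments of 19 to 20 bases were used by 123 of 177 short clonotypes in CD8αβ T cells, or 69.5%, against 34.6% of longer ones. TRBJ2-7 alone made up 86 of these 123. TRBJ1-1 was at 13.6% of short and 10.3% of longer clonotypes there, and TRBJ1-2 at 7.34% and 6.78%. Of the short CD8αα clonotypes the 3 segments were used by 22 of 42, or 52.4%, against 35.3%, and 12 of these 22 used TRBJ2-7. Across the 12 J segments, the number of germline bases and the percentage of a segment's clonotypes that were short had Pearson's r of -0.571 and Spearman's rho of -0.579 in CD8αα T cells, and -0.565 and -0.505 in CD8αβ T cells. These are descriptions over segments of the same library that are not independent of each other.

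TRBJ2-1, TRBJ2-2, TRBJ2-3 and TRBJ2-4 were used less by short than by longer CDR3s of CD8αβ T cells. TRBJ2-1 fell from 15.6% of longer to 7.34% of short clonotypes (13 of 177, exact test, adjusted p = 0.0109) and TRBJ2-4 from 9.89% to 3.95% (7 of 177, adjusted p = 0.0267). TRBJ2-2 fell from 6.78% to 1.13% (2 of 177, exact test, adjusted p = 0.00696) and TRBJ2-3 from 7.99% to 1.69% (3 of 177, adjusted p = 0.00696). With TRBJ2-7 these were 5 of 12 J genes, so 41.7% of the J genes tested passed the threshold in this comparison, 1 higher and 4 lower among short CDR3s. TRBJ2-5, with as many CDR3 bases as TRBJ2-3 and TRBJ2-4, was at 6.21% of short and 10.6% of longer clonotypes (exact test, adjusted p = 0.180). Only the call of TRBJ2-7 remained when clonotypes of 1 read were left out, at 42 of 80 short (52.5%) against 54 of 310 longer clonotypes (17.4%; exact test, adjusted p = 1.29e-08). The differences of TRBJ2-1, TRBJ2-2, TRBJ2-3 and TRBJ2-4 were then -6.65, -6.13, -6.53 and -7.86 percentage points, against -8.24, -5.65, -6.30 and -5.94 over all clonotypes.

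Of the J genes of CD8αα T cells, 0 of 12 passed (0%), and 0 did at an unadjusted p under 0.05 by Fisher's exact test. TRBJ1-1 was at 16.7% of short and 9.49% of longer clonotypes (exact test, adjusted p = 0.847), and in CD8αβ T cells at 13.6% and 10.3% (adjusted p = 0.341). TRBJ2-1 was at 9.52% of short and 21.7% of longer CD8αα clonotypes (exact test, adjusted p = 0.811). With 42 short clonotypes the interval of the TRBJ2-7 share alone ran from 17.2% to 43.6%.

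The excess of TRBJ2-7 was larger in the CD8αβ library, and a test of this difference fell just under the threshold. The differences of 6.20 and 31.1 percentage points in CD8αα and CD8αβ T cells were compared on the odds scale by Zelen's exact test of equal odds ratios (p = 0.00407, adjusted over the 12 J genes p = 0.0489). This test was chosen after the values had been seen. The adjusted p of the exact test was 0.0771 without clonotypes whose best V or J hits were tied and 0.171 against CDR3s of 13 to 14 aa only, both above the threshold of 0.05. A direct comparison of the short clonotypes of both libraries gave -20.02 percentage points for TRBJ2-7, CD8αα minus CD8αβ (exact test, p = 0.0243, adjusted p = 0.292), and 0 of 12 J genes passed (0%).

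The share of TRBJ2-7 changed with length in CD8αβ T cells, from 59.6% of the 47 clonotypes of 11 aa and 45.2% of the 115 of 12 aa to 25.7% at 13 aa, 19.2% at 14 aa and 11.1% at 15 aa. The CD8αα share was 38.9% of the 18 clonotypes of 11 aa, 23.8% of the 21 of 12 aa, 19.05% at 13 aa, 29.5% at 14 aa and 22.2% at 15 aa. The share in CD8αβ T cells thus fell at each length from 11 to 15 aa. At 10 aa it was 44.4% of 9 clonotypes. The share in CD8αα T cells fell from 11 to 13 aa and was higher again at 14 aa.

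**Figure D2:**
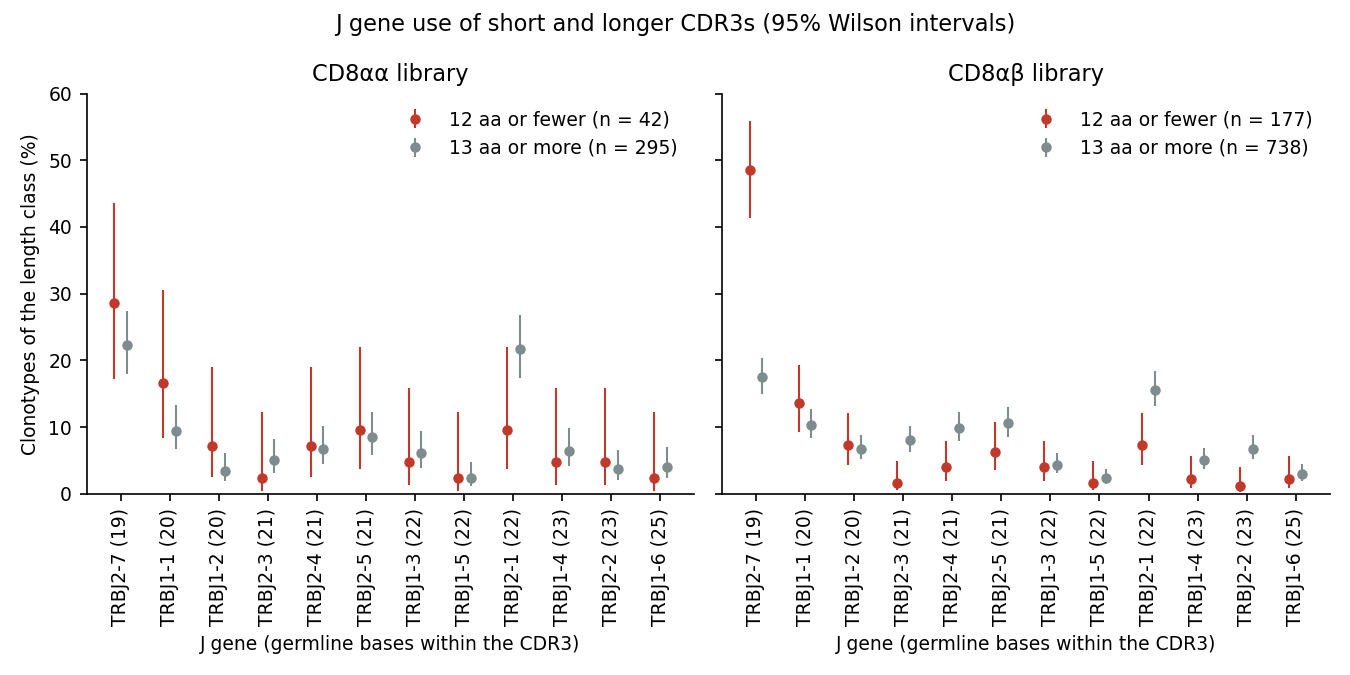
J gene use of short (red) and longer (grey) CDR3s as the percentage of clonotypes of each class (y axis, with 95% Wilson intervals), with J genes ordered by the germline bases they place in the CDR3 (x axis, in brackets). TRBJ2-7 stands at 48.6% of short and 17.5% of longer CDR3s in CD8αβ T cells, and at 28.6% and 22.4% in CD8αα T cells.

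No V gene passed the threshold between short and longer CDR3s. Of the V genes of CD8αα T cells 0 of 21 did (0%), with 1 at an unadjusted p under 0.05, and in CD8αβ T cells 0 of 24 (0%), with 4, all by Fisher's exact test. TRBV13-1, which encodes a Vβ8 family chain, was the most frequent V gene of short CDR3s in both libraries. It was used by 20 of 177 short clonotypes in CD8αβ T cells, or 11.3% (7.43 to 16.8), against 5.28% of longer ones (exact test, p = 0.00589, adjusted p = 0.141). CD8αα T cells used it in 5 of 42, or 11.9% (5.19 to 25.0), against 6.10% (exact test, adjusted p = 1). TRBV12-2 was used by 18 short clonotypes in CD8αβ T cells, or 10.2%, against 7.99% of longer ones (exact test, adjusted p = 0.775), and by 2 in CD8αα T cells, or 4.76%, against 11.5%. Among the short clonotypes of both libraries 0 of 21 V genes differed (0%), with 1 at an unadjusted p under 0.05 by Fisher's exact test, which was TRBV1 at 9.52% of CD8αα and 1.69% of CD8αβ clonotypes.

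The 42 short clonotypes of CD8αα T cells were spread over 38 V-J pairs, of which 3 held more than 1 clonotype, and TRBV1-TRBJ1-1 held the most with 3. The 177 of CD8αβ T cells were spread over 84 pairs, of which 33 held more than 1. The pairs with the most clonotypes there were TRBV12-2-TRBJ2-7 with 10, TRBV13-1-TRBJ2-7 with 9 and TRBV12-1-TRBJ2-7 with 8. All 3 contain TRBJ2-7, joined to V genes that neighbour each other in the locus.

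Short CDR3s had fewer J bases and fewer bases assigned to D. Because CDR3 length is the sum of its V, D, inserted and J bases, the following values describe the clonotypes and were not tested. In CD8αα T cells the CDR3 had 34.2 ± 2.10 bases in short and 43.3 ± 3.29 bases in longer clonotypes (SD, n = 42 and 295), and in CD8αβ T cells 34.5 ± 2.50 and 43.1 ± 3.26 (n = 177 and 738). D bases made up 54.4% of that difference in CD8αα and 46.7% in CD8αβ T cells, and J bases 42.4% and 39.03%. Inserted bases made up 3.60% and 5.59%. D remnants under 5 bases count as inserted, and fewer short than longer CDR3s had a D match. The split between D and inserted bases therefore depends on the D match. All bases between V and J, with or without a D match, averaged 5.10 in short and 10.3 in longer CDR3s of CD8αα T cells. They averaged 5.64 and 10.1 in CD8αβ T cells. V bases were 13.9 in both classes of CD8αα T cells, and 13.1 in short and 13.9 in longer CDR3s of CD8αβ T cells, or 8.71% of the difference.

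J segments were trimmed further in short CDR3s. The germline bases lost from the 5′ end of J were 5.45 ± 2.88 in short and 2.43 ± 2.32 in longer clonotypes of CD8αα T cells, and 4.40 ± 2.38 and 2.35 ± 2.27 in CD8αβ T cells (SD). A complete J end was kept by 3 of 42 short clonotypes in CD8αα T cells, or 7.14% (2.46 to 19.01), against 33.2% of longer ones, and by 12 of 177 in CD8αβ T cells, or 6.78% (3.92 to 11.5), against 32.2%. V ends were trimmed by 2.57 ± 2.17 bases in short and 2.58 ± 2.03 in longer CDR3s of CD8αα T cells, and by 3.15 ± 2.22 and 2.58 ± 1.97 in CD8αβ T cells.

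A D segment was assigned to fewer short than longer CDR3s. MiXCR listed no D match under 5 bases in these lists, so a shorter D remnant counts here as inserted bases. A D segment was found in 16 of 42 short clonotypes of CD8αα T cells, or 38.1% (25.0 to 53.2), against 84.7% of longer ones, and in 74 of 177 of CD8αβ T cells, or 41.8% (34.8 to 49.2), against 83.2%. Of the short CDR3s with a single best D, 8 had TRBD1 and 4 TRBD2 in CD8αα T cells, and 43 had TRBD1 and 19 TRBD2 in CD8αβ T cells. The longer CDR3s had 109 and 120, and 292 and 258. The germline D segments are printed because runs of G recur in the capitals above.
TRBD1: gggacagggggc
TRBD2: gggactgggggggc

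TRBD1 lies at chr6:41533201-41533212, before the first J cluster, and TRBD2 at chr6:41542163-41542176, before the second. TRBD2 therefore cannot join a TRBJ1 segment by deletion, and 0 short CDR3s paired them. In the longer CDR3s the lists paired them 5 times in CD8αα T cells and 11 times in CD8αβ T cells. Joints without any base between V and J were found in 3 of 42 short clonotypes of CD8αα T cells and 0 of 295 longer ones, and in 9 of 177 (5.08%) and 6 of 738 (0.813%) of CD8αβ T cells. No inserted base was found in 21.4% of short and 14.9% of longer clonotypes of CD8αα T cells, and in 19.2% and 12.5% of CD8αβ T cells.

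**Figure D3:**
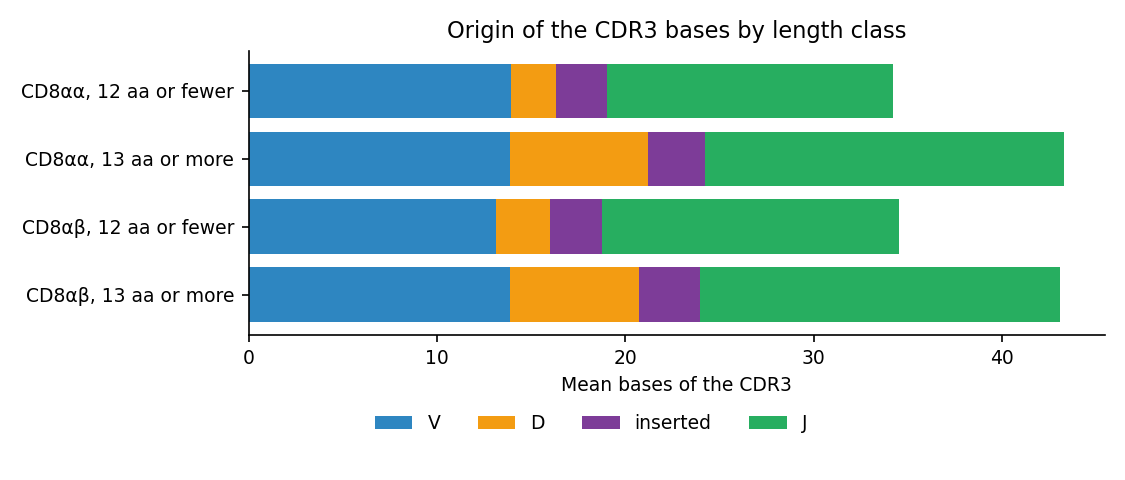
Mean bases of the CDR3 (x axis) by origin (V, D, inserted and J) for short and longer CDR3s of each library (rows). The V and inserted parts differ by less than 1 base between length classes, while D and J bases together are fewer in short CDR3s, at 2.40 and 15.2 bases against 7.33 and 19.03 in CD8αα T cells. D remnants under 5 bases count as inserted.

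Among short CDR3s, those with TRBJ2-7 had fewer J bases than others in both libraries, and more D bases in CD8αβ T cells. The short CDR3s of CD8αβ T cells with TRBJ2-7 had 14.3 ± 2.01 J bases and 4.24 ± 3.57 D bases (SD, n = 86). Those with other J genes had 17.1 ± 2.89 J bases and 1.59 ± 3.06 D bases (n = 91). In CD8αα T cells the J bases were 13.6 ± 2.31 with TRBJ2-7 (n = 12) and 15.8 ± 3.17 with other J genes (n = 30), and the D bases were 2.42 ± 3.06 and 2.40 ± 3.33. The J end had lost 4.67 ± 2.003 bases with TRBJ2-7 and 4.13 ± 2.67 with other J genes in CD8αβ T cells, and 5.42 ± 2.31 and 5.47 ± 3.12 in CD8αα T cells. The median TRBJ2-7 end had lost 4 bases in both libraries, which leaves the segment from the codon tat onward.

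The residues between the first 4 and the last 4 numbered 143 in the short CDR3s of the CD8αα and 621 in those of the CD8αβ library. Glycine, the smallest residue and the one that D segments encode most, led in both length classes. It was 20.3% of central residues in short and 20.6% in longer CDR3s of CD8αα T cells, and 20.9% and 21.8% in CD8αβ T cells. At least 1 central glycine was present in 27 of 42 and 105 of 177 short clonotypes, a count not made for longer ones. Central cysteine was at 0 of 143 and 0 of 621 residues, and it was rare in longer CDR3s too, at 7 of 1895 and 1 of 4689. These shares pool residues of the same clonotype and are descriptions.

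Tyrosine was 9.34% of central residues in short and 4.86% in longer CDR3s of CD8αβ T cells, and 6.99% and 6.60% in CD8αα T cells. In CD8αβ T cells 177 short clonotypes gave 621 central residues and 738 longer ones gave 4689. A single tyrosine in a CDR3 therefore weighs more in the share of short CDR3s, which is tied to the length rule. In short CDR3s it was more frequent with TRBJ2-7, at 16.7% of central residues against 2.49% with other J genes in CD8αβ T cells and 17.1% against 2.94% in CD8αα T cells. The TRBJ2-7 segment encodes a tyrosine, the codon tat above, just before the last 4 residues. It was the last central residue of 48 of 86 short TRBJ2-7 clonotypes in CD8αβ T cells (55.8%, 45.3 to 65.8) and of 7 of 12 in CD8αα T cells (58.3%, 32.0 to 80.7), and of 0 of 91 and 0 of 30 with other J genes. In longer TRBJ2-7 clonotypes it was the last central residue of 74.4% and 75.8%.

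Asparagine, which several other J segments encode near their 5′ ends, was 12.5% of the central residues of short CDR3s with other J genes in CD8αβ T cells and 0.667% of those with TRBJ2-7. Over all J genes it was 6.76% in short and 8.17% in longer CDR3s. Aspartate was at 10.6% and 8.04%, arginine at 8.53% and 6.08%, and alanine at 5.15% and 7.78%. Alanine in CD8αα T cells was at 10.5% in short and 8.55% in longer CDR3s, and tryptophan at 1.40% and 4.06%.

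**Figure D4:**
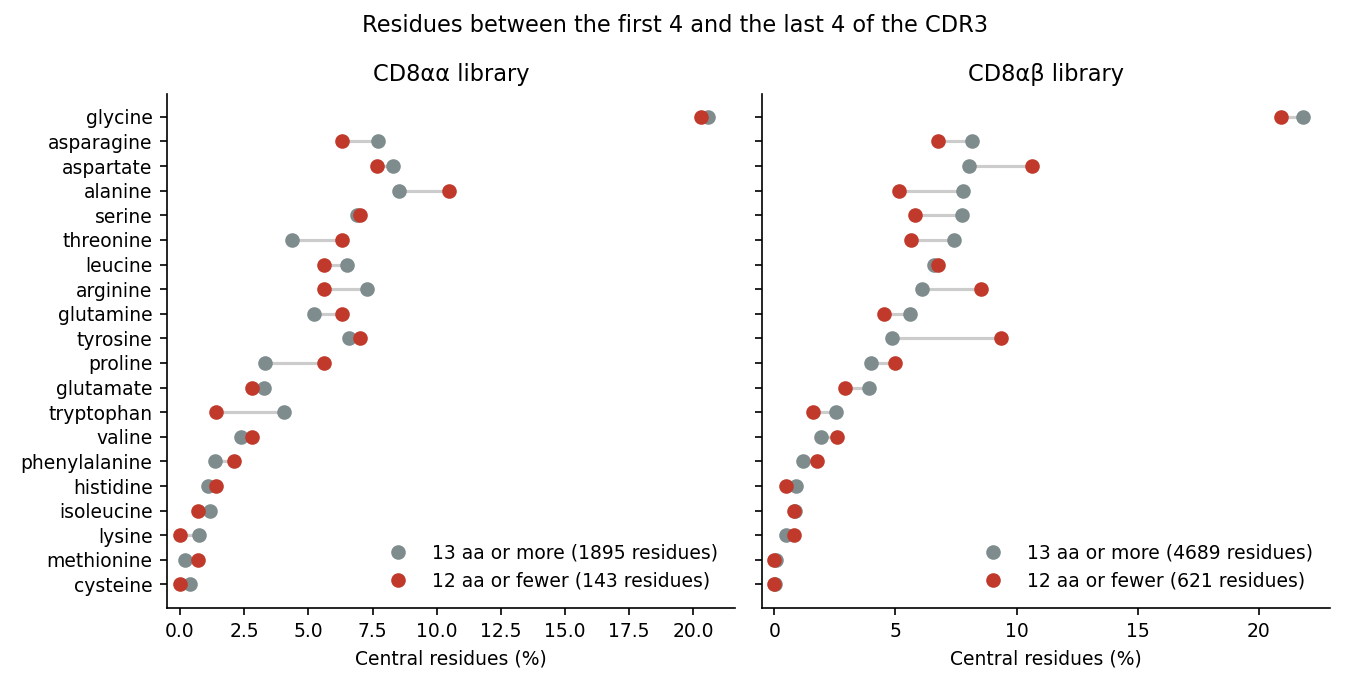
Amino acids between the first 4 and the last 4 residues of the CDR3 (rows) as the percentage of all such residues (x axis) in short (red) and longer (grey) CDR3s of each library. Glycine leads in both classes at 20.3% to 21.8%, and the widest gap in CD8αβ T cells is that of tyrosine, at 9.34% and 4.86%.

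At the middle position of the CDR3, where each clonotype gives 1 residue, 0 of 20 amino acids passed the threshold in either library (0%). At an unadjusted p under 0.05 by Fisher's exact test there was 1 in CD8αα and 2 in CD8αβ T cells, named here after their values had been seen. Asparagine was in the middle of 24 of 177 short CDR3s of CD8αβ T cells, or 13.6% (9.28 to 19.4), against 6.64% of longer ones (exact test, p = 0.00482, adjusted p = 0.0965). Serine was there in 3.39% of short and 7.72% of longer ones (exact test, adjusted p = 0.392). Glutamine was there in 5 of 42 short CDR3s of CD8αα T cells and 9 of 295 longer ones (exact test, adjusted p = 0.404). Glycine was at 35.6% and 42.5% in CD8αβ T cells (exact test, adjusted p = 0.392) and at 33.3% and 42.0% in CD8αα T cells (adjusted p = 1).

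The clone sizes of most short CDR3s were low, as were those of most longer ones. The short clonotypes of CD8αα T cells held 1 to 61 reads with a median of 2, against a median of 3 for longer ones, and those of CD8αβ T cells held 1 to 91 reads with a median of 1, as did longer ones. At least 5 reads were held by 9 of 42 short clonotypes of CD8αα T cells (21.4%), against 92 of 295 longer ones (31.2%). In CD8αβ T cells these were 4 of 177 (2.26%) and 38 of 738 (5.15%). At least 10 reads were held by 3 short clonotypes of CD8αα T cells and 1 of CD8αβ T cells. The mean was 4.10 reads in short and 9.57 in longer clonotypes of CD8αα T cells, and 2.18 and 1.99 in CD8αβ T cells. With the largest clonotype of each class left out, the means were 2.71 and 7.35 in CD8αα and 1.67 and 1.92 in CD8αβ T cells, so the order of the CD8αβ means rests on the clonotype of 91 reads. In RNA from sorted cells, more cells of a clone and more receptor RNA in each cell cannot be told apart.

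The TRBV29-TRBJ1-5 clonotype of CD8αα T cells held 61 reads, or 2.04% of the TCR β-chain reads of its library (1.59 to 2.61), which was 35.5% of the short reads. The next held 13 reads (TRBV13-3-TRBJ1-1), 12 (TRBV17-TRBJ2-4), 6 (TRBV1-TRBJ2-1) and 6 (TRBV20-TRBJ2-7). In CD8αβ T cells the TRBV4-TRBJ2-7 clonotype held 91 reads, or 4.92% (4.02 to 6.00), which was 23.6% of the short reads. Its 8 bases between V and J held 7 matched to TRBD2, and its central residues were WGGY. The others held 9 reads (TRBV3-TRBJ2-5), 5 (TRBV13-1-TRBJ2-7), 5 (TRBV14-TRBJ2-7) and 4 (TRBV29-TRBJ1-1). In each library a single short clonotype thus stood well above the rest.

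Clonotypes seen in 1 read were 18 of 42 short (42.9%, 29.1 to 57.8) and 89 of 295 longer ones (30.2%) in CD8αα T cells (Fisher's exact test, p = 0.112). The CD8αβ numbers were 97 of 177 (54.8%, 47.4 to 62.0) and 428 of 738 (58.0%; exact test, p = 0.447). The difference between libraries in this contrast had p = 0.0732 in a likelihood-ratio chi-square test of the interaction. A clonotype of 1 read cannot be told from a sequencing error by its count alone.

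**Figure D5:**
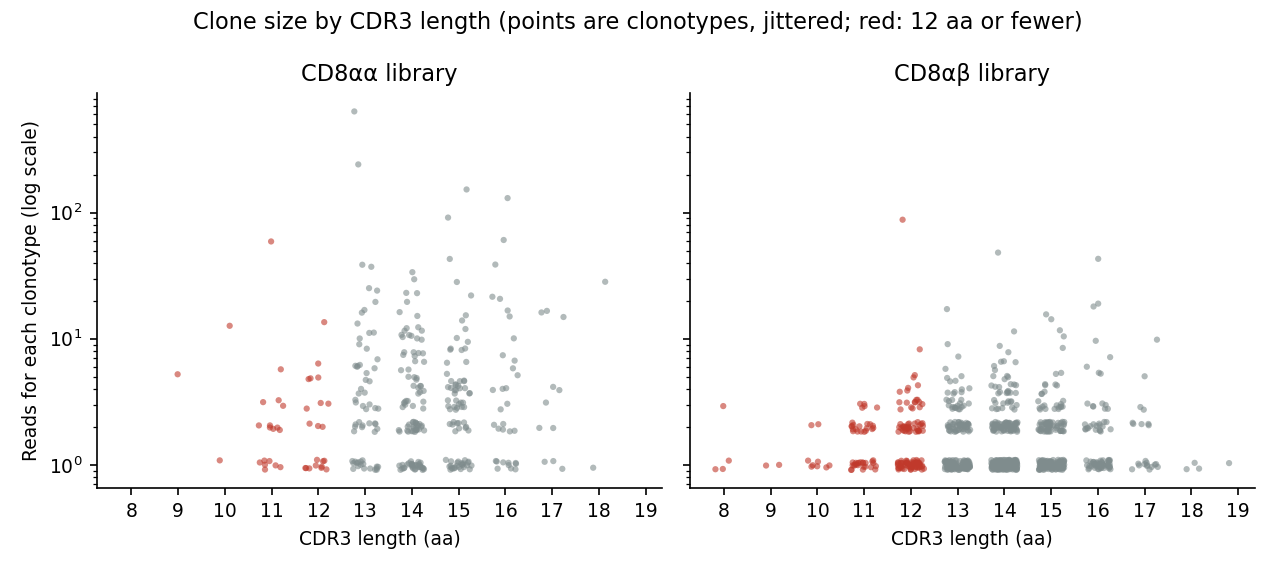
Reads for each clonotype (y axis, log scale) by CDR3 length (x axis, aa, points jittered) in each library, with CDR3s of 12 aa or fewer in red. The red points lie at 1 to 13 reads except for 1 clonotype in each library, at 61 reads in CD8αα T cells and 91 reads in CD8αβ T cells.

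A single short clonotype was found in both libraries, TRBV14-TRBJ1-1 with central residues LGT, the same at the nucleotide level and with 2 reads in CD8αα and 1 read in CD8αβ T cells. This was 1 of 42 short clonotypes against 4 of 295 longer ones in CD8αα T cells (Fisher's exact test, p = 0.488), and 1 of 177 against 5 of 738 in CD8αβ T cells (p = 1). The same V gene, J gene and amino acids were encoded by more than 1 nucleotide CDR3 in 2 of 42 short clonotypes of CD8αα T cells (longer, 6 of 295; exact test, p = 0.262) and 2 of 177 of CD8αβ T cells (longer, 2 of 738; exact test, p = 0.170). Both pairs and the shared sequence are printed to show where the synonymous bases lie.
In both libraries, TRBV14-TRBJ1-1: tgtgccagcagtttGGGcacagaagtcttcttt
CD8αα TRBV1-TRBJ1-1, 3 reads: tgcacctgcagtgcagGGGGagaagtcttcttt
CD8αα TRBV1-TRBJ1-1, 2 reads: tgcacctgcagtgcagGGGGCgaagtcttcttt
CD8αβ TRBV13-2-TRBJ2-7, first of 3 reads: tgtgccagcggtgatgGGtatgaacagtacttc
CD8αβ TRBV13-2-TRBJ2-7, second of 3 reads: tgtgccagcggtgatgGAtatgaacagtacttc

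Both pairs differ in 1 base within a glycine codon, at the joint. The central residues of the second pair, DGY, occurred in 3 short clonotypes of CD8αβ T cells, the most for any central sequence. All 3 were TRBV13-2-TRBJ2-7 joints of 11 aa with 2 bases between V and J and equal trimming. The third had 1 read and differed from the pair outside the central residues. Whether it is a read error was not tested. The CD8αα central sequences AGG and GAYA each occurred in 2. The other repeats in CD8αβ T cells, DAGY, DRD, LGG, LVGY, PGTD, QGY and RGY, occurred in 2 clonotypes each.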

How the data were processed

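RNA from CD8αα and CD8αβ T cells of the liver was sequenced in bulk, 1 library each. MiXCR (version 3.0.12) was run by the authors, who deposited a count of reads for each clonotype, without normalization, and its fraction of all listed reads (6133 in CD8αα and 3215 in CD8αβ T cells). The command and segment library are not given in the sources used here. Shares were computed from the deposited counts over TCR β-chain reads. A clonotype of 3 reads is 0.100% of them in CD8αα and 0.162% in CD8αβ T cells.

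Segment ends, trimming and D matches were read from the reference points of each clonotype. Palindromic bases count with the segment they extend and not as inserted bases. Two-sided Fisher's exact tests compared classes of clonotypes, adjusted by the Benjamini-Hochberg method over the genes or residues of a comparison, with a threshold of 0.05. Python 3.11.15, scipy 1.17.1, pandas 2.3.3, numpy 2.4.6, statsmodels 0.14.6 and matplotlib 3.10.9 were used, and the statistics were tested on simulated data. Segment sequences and coordinates are from the GENCODE annotation of GRCm38.

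Genes were named when their adjusted p was under 0.05 or they held at least 10% of the short clonotypes of a library. Clonotypes were named when among the 5 largest, the shortest or found in both libraries, and others are named with their values known. The members, lists and tests were chosen with earlier results of these data known. The alternatives were a minimum of 2 reads, limits of 11 and 13 aa, comparison with 13 to 14 aa only, joining by amino acids, merging CDR3s 1 nucleotide apart, and leaving out tied hits, shared clonotypes or the largest clonotype. The study's other experiments were not analysed here.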

Additional observations from a re-analysis of the deposited data

Results flagged for a closer look

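The excess of TRBJ2-7 in short over longer CDR3s was 6.20 percentage points in CD8αα T cells and 31.1 percentage points in CD8αβ T cells. It was marked because the test of equal odds ratios fell just under the threshold (Zelen's exact test, p = 0.00407, adjusted p = 0.0489 over 12 J genes). This test was chosen with the values known, and its result kept its side of the threshold in 3 of 7 alternatives. Short clonotypes compared directly between libraries gave an adjusted p of 0.292 for TRBJ2-7 (Fisher's exact test). With 1 library for each cell type, cell type and library cannot be told apart.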

How the results depend on the processing

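Of 175 values recomputed under alternatives, 133 were labelled the same. For a difference this means that it kept its direction and side of the threshold. For a count of genes or residues called, only the number was compared, whichever ones were called. TRBJ2-7 in CD8αβ T cells passed under all 7 of its alternatives (22.3 to 35.1 percentage points), and the other J genes called there lost the call in several of them. All values below are short minus longer, or CD8αα minus CD8αβ, in percentage points, and p values are from exact tests. With the limit at 11 aa the share of clonotypes differed by -0.545 and the share of reads by -1.31. At 13 aa the share of reads differed by 9.56, or by -2.07 without the largest clonotype of either library (exact p = 0.172), an alternative chosen after seeing the data. J genes called in CD8αβ T cells numbered 1, which was TRBJ2-7, with at least 2 reads, at 11 aa and against 13 to 14 aa only. At 13 aa they numbered 5, with TRBJ1-1 and TRBJ1-4 in place of TRBJ2-1 and TRBJ2-4. TRBJ1-1 was then at 14.2% of short and 8.88% of longer clonotypes (exact test, adjusted p = 0.0389), and TRBJ1-4 at 2.27% and 5.86% (adjusted p = 0.0385). Middle residues called there numbered 5 at 13 aa (glycine, glutamine, arginine, threonine and alanine) and 1 against 13 to 14 aa only (serine). The difference between libraries in TRBJ2-7 excess was -24.9, and -24.1 with clonotypes joined by amino acids, -22.8 at 11 aa, -23.8 against 13 to 14 aa only and -24.3 without tied hits, where the adjusted p was 0.0769, 0.730, 0.171 and 0.0771. It stayed under 0.05 with at least 2 reads (-36.6), with near-identical CDR3s merged (-25.0) and at 13 aa (-22.7). These alternatives were chosen after seeing the data. In CD8αα T cells, where no J gene was called, TRBJ2-7 reversed with at least 2 reads (-1.50) and at 13 aa (-0.419), TRBJ2-1 at 13 aa (1.12), TRBJ2-2 at 11 aa (-4.11) and 13 aa (-1.45), TRBJ2-3 at 11 aa (0.0151) and TRBJ2-4 at 13 aa (-1.61). The share found in the other library reversed in CD8αα T cells with at least 2 reads (-1.46) and at 13 aa (-0.772), and in CD8αβ T cells when joined by amino acids (0.0254), at 11 aa (1.03) and against 13 to 14 aa only (0.338). The share encoded by several nucleotide sequences reversed in CD8αα T cells at 13 aa (-0.681). It passed with at least 2 reads in CD8αα T cells (8.33, exact p = 0.0105) and at 11 aa in CD8αβ T cells (2.99, exact p = 0.0248). The 1-read share of CD8αβ T cells reversed at 11 aa (0.737). The cause of these changes was not tested. No paired analysis was possible because each cell type has 1 library. There were 42 short clonotypes in CD8αα T cells.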
